A study of Mus musculus with 12 samples.

Results

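The 8 long noncoding RNAs followed in CD4+ T cells were Malat1, Neat1, Gas5, Snhg1, Pvt1, Dleu2, Mir155hg and Flicr. They were taken by name rather than by a cut on measured values, though with earlier results of these data known. Of the 8, 7 had a row among the 17523 genes of the table. Mir155hg was not analysed here. The 7 also passed the filter on low values, which kept 15587 genes, and 635 of these are long noncoding RNAs in RefSeq. The RNA came from the spleens of Gr/fr mice of C57BL/6 strain that had received no treatment and were a few months old. In these mice the Csf2 allele, which encodes GM-CSF, also carries iCre and BFP, and a stop cassette before eYFP in the Rosa26 locus is removed by Cre. YFP therefore marks cells that express GM-CSF or did so earlier, and all 4 groups carry these alleles. Naïve (CD62L+CD44−) and effector memory (TEM, CD62L−CD44hi) CD4+ T cells were divided by YFP, which gives 4 groups of 3 libraries each. The methods name 3 mice as the source of these cells. No source used here ties a library to a mouse or says whether cells were pooled, so the p-values measure the spread between these libraries.

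Long noncoding RNAs are transcribed and often spliced like messenger RNA but are not translated into a known protein. Malat1 stays in the nucleus at speckles that hold splicing factors, and Neat1 is the scaffold on which paraspeckles form. Gas5 and Snhg1 are host genes of small nucleolar RNAs (snoRNAs), which are cut from their introns and guide the modification of ribosomal RNA, while the spliced exons are degraded when they meet translating ribosomes. Dleu2 is the host of miR-15a and miR-16-1, which restrain the cell cycle and survival genes, and Mir155hg is the host of miR-155, which lymphocytes make after activation. Pvt1 lies next to the proto-oncogene Myc. Flicr is transcribed next to Foxp3, the master regulator of regulatory T cells, and is known from those cells.

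Values are normalized counts, that is, reads divided by the size factor of the library. All 6 naïve-state markers were lower and all 6 memory-state markers were higher in TEM than in naïve libraries. Replicate 3 of each group had at most 24.7 normalized counts of Xist, the noncoding RNA of the inactive X chromosome, and replicates 1 and 2 had at least 11867, so each group holds both sexes. The libraries that stood apart in several of the noncoding RNAs were 4, 1 from each group: naïve YFP− replicate 2, naïve YFP+ replicate 2, TEM YFP− replicate 1 and TEM YFP+ replicate 2. They were picked, after the values were seen, as the library of each group with the most Neat1. Results of the noncoding RNAs that change without them are given both ways. This choice favours a smaller spread and smaller SEs, without them, for Neat1 and for RNAs that vary with it. Their depth was not unusual, with 41438995 to 53008149 reads on genes against 40974124 to 57822269 in the other 8.

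The levels spanned a wide range. Malat1 was the most abundant of all 841 long noncoding RNAs in the table and ranked 107 among all genes. Per kilobase of exon (GENCODE M21), mean levels over the 12 libraries were 5852.5 normalized counts for Malat1, 1027 for Gas5, 359.6 for Snhg1, 173 for Neat1, 64.7 for Pvt1, 24.1 for Flicr and 20.8 for Dleu2. This order held within each of the 12 libraries down to Pvt1 and Flicr. Flicr and Dleu2 could not be ordered, since Flicr was the higher in 7 of 12 libraries. Across libraries the ranges of Snhg1 (169.9 to 658.6) and Neat1 (79.2 to 376.4) overlapped, as did those of Neat1 and Pvt1 (50.4 to 81.4).

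**Figure D1:**
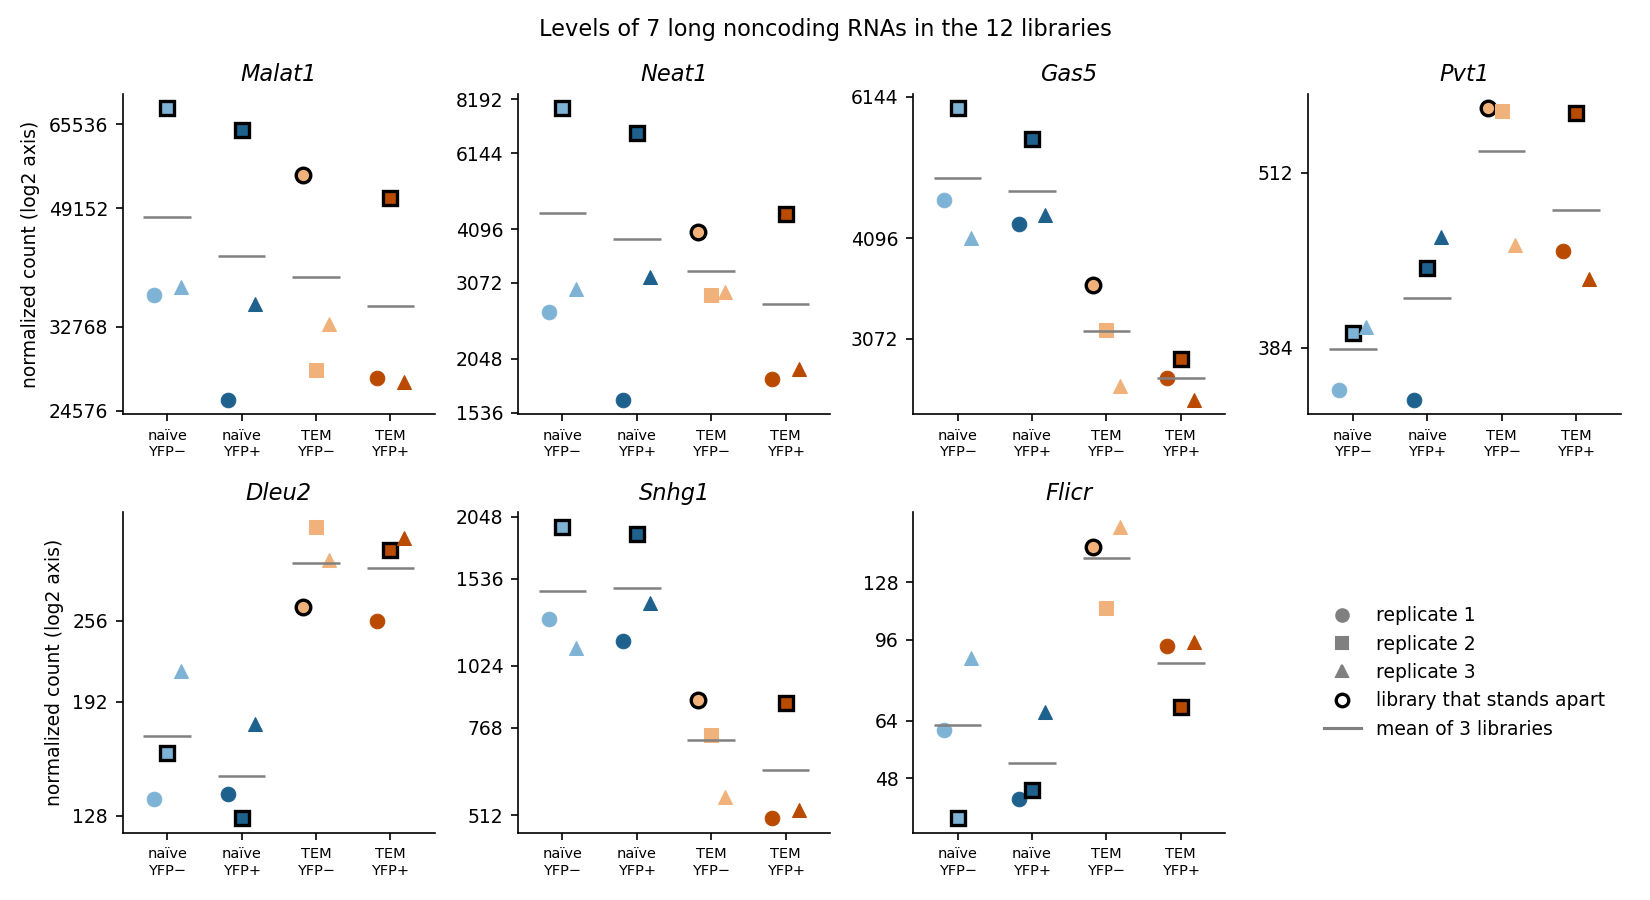
Normalized counts (log2 axis) of 7 long noncoding RNAs in the 12 libraries, by group, with marker shapes for replicate numbers, grey lines for the mean of 3 libraries and black outlines for the 4 libraries that stand apart. Gas5, Snhg1 and Dleu2 separate naïve from TEM libraries, and the outlined libraries are the highest of their group for Malat1, Neat1, Gas5 and Snhg1.

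TEM cells differed from naïve cells in 5 of the 7 noncoding RNAs (limma, adjusted p of 0.05 or less over all genes tested). Dleu2, Flicr and Pvt1 rose, and Gas5 and Snhg1 fell. The share is to be read against a background in which 59.5% of all genes tested passed in this comparison, 34.2% as higher in TEM and 25.4% as lower. With quantile normalization in place of the size factors, the calls of all genes turned from 5328 higher and 3954 lower to 4099 higher and 6675 lower, and the median log2 fold change of all genes moved from 0.04 to -0.16. Gas5 and Snhg1 remained called under that scaling, whereas Dleu2, Flicr and Pvt1 did not. The libraries of the TEM and naïve cells did not overlap for Gas5, Snhg1 and Dleu2, and the same held for 36.9% of all genes. The median log2 fold change of the 7 was -0.25, with a median absolute value of 0.70 beside 0.45 for all genes. Markers of other cell types also moved between these libraries: all 6 of conventional dendritic cells, 5 of 7 of macrophages and neutrophils, all 4 of NK cells and 7 of 8 of plasmacytoid dendritic cells were higher in TEM, and 5 of 8 B cell markers and 1 plasmacytoid dendritic cell marker were lower and 1 B cell marker was higher. Of 8 T cell markers 2 were higher and 2 lower, of 2 CD8 T cell markers 1 was higher and 1 lower, and 0 of 4 erythroid markers passed. Without the 4 libraries that stand apart, the macrophage and neutrophil count was 7 of 7, 3 B cell markers were lower and 1 higher, and 1 T cell marker was higher and 3 lower. Summed conventional dendritic cell markers reached 76.0 to 350.2 normalized counts in naïve and 502 to 19012 in TEM libraries, and those of macrophages and neutrophils 414 to 3799 and 1891 to 14587. Their part in the results was not tested.

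**Figure D2:**
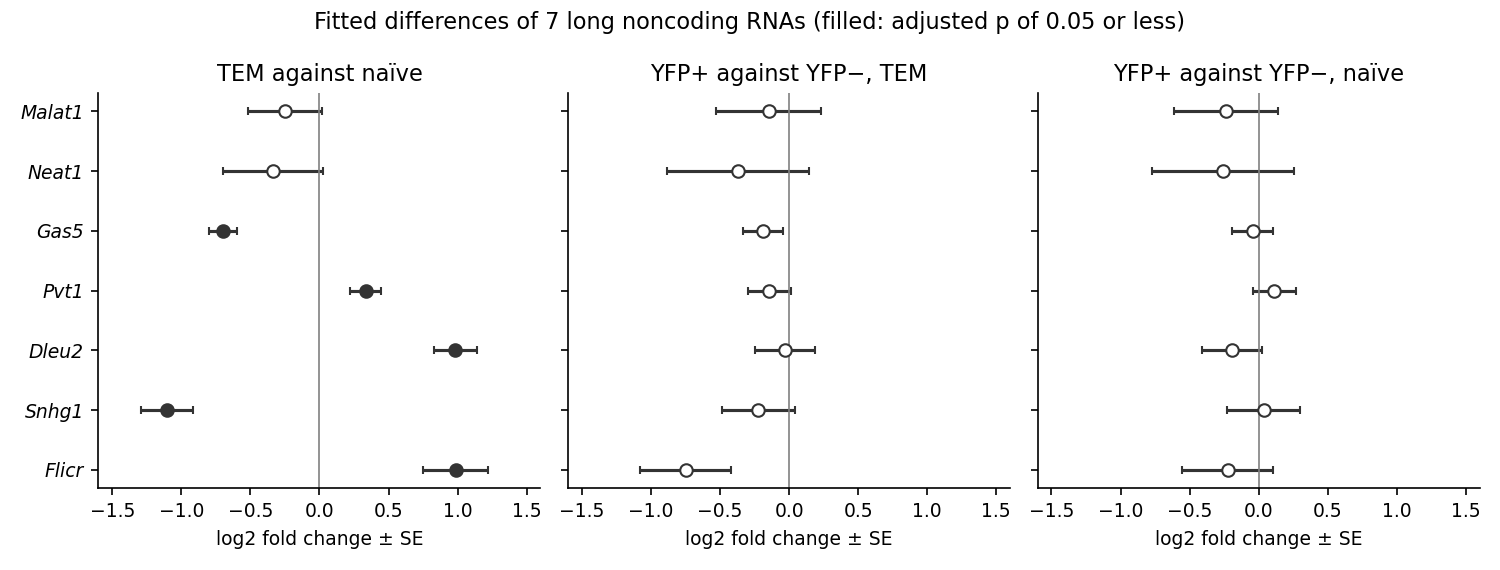
Fitted log2 fold changes (x axis, with the standard error) of 7 long noncoding RNAs in TEM against naïve cells and in YFP+ against YFP− cells of each type. Filled points passed an adjusted p of 0.05, which 5 did between the cell types and 0 did between YFP+ and YFP− cells.

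Both snoRNA host genes were lower in TEM cells. Gas5 (Entrez 14455, chr1:161034601-161038539, plus strand, GRCm38) had 4574, 5951 and 4095 normalized counts in naïve YFP− and 4265, 5448 and 4375 in naïve YFP+ libraries. In TEM cells it had 3584, 3150.2 and 2682 in YFP− and 2747, 2900 and 2578 in YFP+ libraries. Every TEM library lay below every naïve library. The fitted log2 fold change was -0.70 (SE 0.10, limma adjusted p = 7.9e-05), and it was -0.64 (adjusted p = 0.000185) without the 4 libraries that stand apart.

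Snhg1 (Entrez 83673, chr19:8723487-8726326, plus strand) changed more. Naïve YFP− libraries had 1274, 1955 and 1111 normalized counts and naïve YFP+ libraries 1151, 1886 and 1371. In TEM cells the YFP− libraries had 873, 744 and 557 and the YFP+ libraries 504, 863 and 524. Again no TEM library reached a naïve one. The log2 fold change was -1.11 (SE 0.19, limma adjusted p = 0.00026), and -1.09 (adjusted p = 0.000111) without the 4 libraries.

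The decrease extended over the other listed snoRNA host genes that were tested. Of 14 other host genes tested, 13 were lower in TEM cells, 0 were higher, and the median log2 fold change was -0.75 beside 0.04 for all genes. As lower, 25.4% of all genes tested were called. The largest decreases were those of Epb41l4aos (-1.18, SE 0.11, limma adjusted p = 1.19e-06), Snhg7 (-1.08, SE 0.33, adjusted p = 0.0124) and Snhg12 (-1.0, SE 0.23, adjusted p = 0.00202). Snhg20 had a log2 fold change of -0.73 and an adjusted p of 0.0715. Without the 4 libraries 11 of the 14 were called, all of them lower, and under quantile normalization 14 were. The summed level of the host genes, Gas5 and Snhg1 included, was 11229 to 17250 normalized counts in naïve YFP−, 11685 to 15767 in naïve YFP+, 6728 to 9395 in TEM YFP− and 6587 to 8306 in TEM YFP+ libraries.

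**Figure D3:**
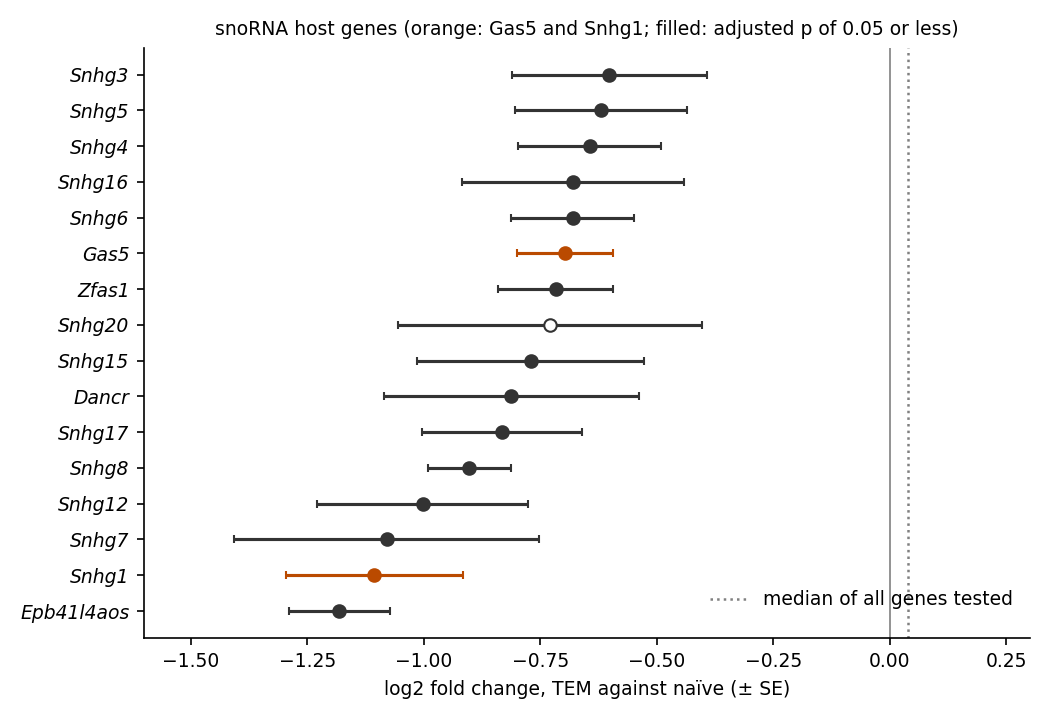
Log2 fold changes (x axis, with the standard error) of 16 snoRNA host genes in TEM against naïve cells, with the median of all genes as a dotted line. All 16 lie below 0, from -0.60 for Snhg3 to -1.18 for Epb41l4aos, and 15 of them, all but Snhg20, passed an adjusted p of 0.05.

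Many snoRNA host genes start within a run of pyrimidines, the letters that ribosomal protein genes also carry at their starts. The starts of Gas5, Snhg1 and 2 of the host genes named above, Snhg7 and Snhg12, are shown for that reason, as 80 bases each from RefSeq on GRCm38.p6, in which base 41 is the first that is transcribed. Capitals mark the longest run of C or T that touches the 21 bases centred on that base. Gas5 has 2 annotated starts, of which the downstream one, with the longer run, is given.
Gas5: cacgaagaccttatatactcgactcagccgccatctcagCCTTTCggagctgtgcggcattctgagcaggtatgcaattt
Snhg1: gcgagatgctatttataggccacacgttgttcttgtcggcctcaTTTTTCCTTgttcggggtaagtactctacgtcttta
Snhg7: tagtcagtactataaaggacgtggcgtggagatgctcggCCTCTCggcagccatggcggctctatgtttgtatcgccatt
Snhg12: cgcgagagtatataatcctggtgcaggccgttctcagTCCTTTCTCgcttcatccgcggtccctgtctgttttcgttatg
These windows are chr1:161035126-161035205 (plus strand), chr19:8723447-8723526 (plus), chr2:26640205-26640284 (minus) and chr4:132308638-132308717 (plus). The run was 6 bases long in Gas5 and Snhg7 and 9 in Snhg1 and Snhg12. In Gas5, Snhg7 and Snhg12 it includes the first transcribed base, whereas in Snhg1 it begins 4 bases after that base. It was 3 bases long at the upstream start of Gas5 and 4 in the host gene Zfas1, which are not shown. A run of 8 or more such letters was found at 5 of 19 starts of 17 host genes (26.3%). Over the 32851 starts of all genes the share was 14.0%. A run of that length was thus not a general feature of the hosts. The median longest run was 6 bases at the host starts and 4 at all starts. The letters describe the DNA, and no binding or translation was measured.

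The counts of the host genes include or adjoin their snoRNAs. In GENCODE M21, 9 genes, Snord47, Snord78 and Snord80 among them, share from 60 to 84 bases with the annotated exons of Gas5 on the same strand. The row for Snord47, a snoRNA inside Gas5, held only 2.30 to 17.0 normalized counts and did not pass the test (log2 fold change 0.20, SE 0.42, limma adjusted p = 0.709). The row for Snord22, inside Snhg1, fell from 56.4 to 157 normalized counts in naïve libraries to 24.4 to 61.5 in TEM libraries. The log2 fold change was -1.08 (SE 0.33, limma adjusted p = 0.0122). Snord22 shares 126 bases with the annotated exons of Snhg1. How reads on shared bases were counted is not stated, so this row may hold Snhg1 reads and is not a separate measure of the snoRNA. Among the protein-coding genes nearby, Zbtb37, which overlaps Gas5 on the opposite strand, was also lower in TEM cells (-0.49, SE 0.14, adjusted p = 0.0071). Slc3a2, which lies 118 bases from Snhg1 and encodes an amino acid transporter subunit, showed 0.04 (SE 0.08, adjusted p = 0.695), and Wdr74 on the other side was lower (-0.52, SE 0.07, adjusted p = 3.13e-05).

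Dleu2 (Entrez 668253, chr14:61602836-61682373, minus strand) was about 2 times higher in TEM cells. It had 136, 160.2 and 214 normalized counts in naïve YFP− and 138.5, 127 and 178 in naïve YFP+ libraries. TEM YFP− libraries had 269, 358 and 318 and TEM YFP+ libraries 256, 329 and 343. The lowest TEM library was above the highest naïve one. Its log2 fold change was 0.98 (SE 0.15, limma adjusted p = 0.000131) and 0.95 (adjusted p = 0.0042) without the 4 libraries, but it was 0.26 (adjusted p = 0.169) under quantile normalization, at 0.42 above the median of all genes.

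The mature miRNAs that Dleu2 carries are shown because they share a seed, the bases 2 to 8 that pair with a target, given here in capitals (RefSeq, GRCm38.p6, 5′ to 3′).
miR-15a-5p: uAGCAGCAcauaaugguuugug
miR-16-5p: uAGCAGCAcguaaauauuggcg
They lie at chr14:61632075-61632096 and chr14:61631936-61631957 on the minus strand. In GENCODE M21 the Mir15a precursor shares 0 bases with the exons of Dleu2 and that of Mir16-1 shares 13. The seed AGCAGCA occurs in 11 of the 1738 mature miRNAs of the RefSeq table. The precursor row Mir16-1 held 0 to 10.6 normalized counts in naïve and 0 to 13.2 in TEM libraries, too few to compare (limma adjusted p = 0.661), and mature miRNAs are not measured by this kind of library.

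In TEM against naïve cells 59.5% of all genes tested passed, 34.2% as higher and 25.4% as lower. Of 9 known targets of miR-15 and miR-16, 7 passed there, with 5 higher and 2 lower and a median log2 fold change of 0.81. The largest were those of the cell cycle kinase Wee1 (3.75, SE 0.17, limma adjusted p = 2.94e-09), the cyclin Ccnd1 (2.88, SE 0.29, adjusted p = 2.65e-06) and the checkpoint kinase Chek1 (2.77, SE 0.34, adjusted p = 1.43e-05). The survival factor Bcl2 was lower (-0.80, SE 0.07, adjusted p = 1.29e-06). For 2 of the 9, Bcl2 and Ccnd1, these averages join unequal TEM groups. Bcl2 had a mean of 11058 normalized counts in naïve YFP−, 14207 in naïve YFP+, 4803 in TEM YFP− and 10784 in TEM YFP+ libraries, and the interaction of YFP status and cell type was 0.80 (SE 0.15, adjusted p = 0.0109). Ccnd1 had a mean of 178 in naïve YFP−, 185 in naïve YFP+, 4951 in TEM YFP− and 402 in TEM YFP+ libraries. Its interaction was -3.57 (SE 0.58, limma adjusted p = 0.00581). Without the 4 libraries that stand apart, 0 of the 9 targets were called in the interaction. Targets thus moved in both directions, and under quantile normalization 6 were called higher and 3 lower. A link of these counts to Dleu2 was not tested. Trim13, Kcnrg and Dleu2 overlap. Trim13 showed -0.36 (SE 0.19, adjusted p = 0.128), and Kcnrg, at 12.8 normalized counts on average, was lower in TEM cells (-1.36, SE 0.46, adjusted p = 0.0218). Of the neighbours, Spryd7 showed 0.11 (adjusted p = 0.304) and Dleu7 -0.62 (adjusted p = 0.256).

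Mir155hg lies at chr16:84713023-84715245 (plus strand). It was not analysed here itself. The row of the Mir155 precursor was, which shares 65 bases with the exons of the host. In the 6 naïve libraries this row held 2 reads in all, and 5 of the 6 had 0. The 6 TEM libraries held 3 to 15 reads each, and 39 in all. The row passed the filter of 5 normalized counts only through TEM libraries. A test of TEM against naïve would rest in part on that filter, so no p-value is given. No fold is given either, since every naïve library is at or under 3 reads. The mature arms of miR-155 are shown to set their seeds beside that of miR-15 and miR-16, from which they differ.
miR-155-5p: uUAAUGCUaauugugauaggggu
miR-155-3p: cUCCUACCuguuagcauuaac
They lie at chr16:84714143-84714165 and chr16:84714182-84714202. Each of these seeds belongs to 1 mature miRNA of the 1738.

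Of 11 known targets of miR-155, 5 were higher, 3 were lower and 3 did not pass the test in TEM against naïve cells. The shares of all genes tested were 34.2% higher and 25.4% lower. The transcription factor Maf (4.57, SE 0.18, limma adjusted p = 8.75e-10) and the checkpoint receptor Ctla4 (3.17, SE 0.30, adjusted p = 1.48e-06) were higher, and the ubiquitin ligase Peli1 was lower (-1.25, SE 0.08, adjusted p = 3.51e-08). The inositol phosphatase Inpp5d was higher (0.49, SE 0.09, adjusted p = 0.000408). The cytokine signalling inhibitor Socs1 showed 0.18 (SE 0.09, adjusted p = 0.108). The gene 3036 bases downstream of Mir155hg, Mrpl39, showed 0.15 (adjusted p = 0.0727).

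Pvt1 (Entrez 19296, chr15:62037986-62260215, plus strand) was modestly higher in TEM cells. Naïve YFP− libraries had 358, 394 and 397 normalized counts and naïve YFP+ libraries 352, 438 and 460.4. TEM YFP− libraries had 569, 567 and 454 and TEM YFP+ libraries 449.9, 564 and 429.6. The groups overlapped, since 3 TEM libraries lay within the naïve range. The log2 fold change was 0.33 (SE 0.11, limma adjusted p = 0.0188). It was 0.28 (adjusted p = 0.12) without the 4 libraries that stand apart, and -0.07 (adjusted p = 0.58) under quantile normalization, so that the call was lost and, in the latter, the sign turned. Leaving out single libraries gave adjusted p-values from 0.0113 to 0.0479.

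Myc, which lies 47625 bases before Pvt1, was lower in TEM cells, with 3393 to 5420 normalized counts in naïve and 2616 to 3567 in TEM libraries (log2 fold change -0.54, SE 0.13, limma adjusted p = 0.00309, and 0.0557 without the 4 libraries). Pvt1 and Myc thus had opposite signs between the cell types under the size factors. The nearest gene on the other side in the table, Gsdmc4, lies 1630925 bases away.

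Flicr (Entrez 78185, chrX:7573600-7581016, plus strand) was about 2 times higher in TEM cells. It had 61.0, 39.3 and 87.6 normalized counts in naïve YFP− and 43.3, 45.3 and 67.0 in naïve YFP+ libraries. TEM YFP− libraries had 153, 113 and 169 and TEM YFP+ libraries 93.0, 68.3 and 95.1. The YFP− TEM libraries were above all naïve ones, while 1 YFP+ TEM library lay within the naïve range. The fitted change on the log2 scale was 0.99 (SE 0.23, limma adjusted p = 0.00277) and 0.85 (adjusted p = 0.0231) without the 4 libraries, but -0.12 (adjusted p = 0.711) under quantile normalization. In each of the 4 groups Flicr was highest in replicate 3, the male libraries. Flicr is X-linked, and whether sex contributes was not tested.

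Flicr overlaps Foxp3 on the same strand, with 853 of its 3583 exon bases shared, and shares 310 with Ppp1r3f on the opposite strand. It is not stated how reads on shared bases were counted or whether strand was used, so the Flicr row may have gained or lost reads to its neighbours. Foxp3 had 1087 to 2911 normalized counts in naïve and 6198 to 19208 in TEM libraries (log2 fold change 2.79, SE 0.17, limma adjusted p = 2.75e-08). Flicr rose less than Foxp3, from 21.5 to 51.2 Flicr counts per 1000 of Foxp3 in naïve libraries down to 7.94 to 11.03 in TEM libraries. Ppp1r3f was lower in TEM cells (-1.19, SE 0.16, adjusted p = 3.12e-05), as was Ccdc22 on the other side of Foxp3 (-1.42, SE 0.09, adjusted p = 5.53e-08). All 6 regulatory T cell markers were higher in TEM than in naïve libraries. In bulk RNA, more regulatory T cells in a sorted fraction and more Flicr per cell cannot be told apart.

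**Figure D4:**
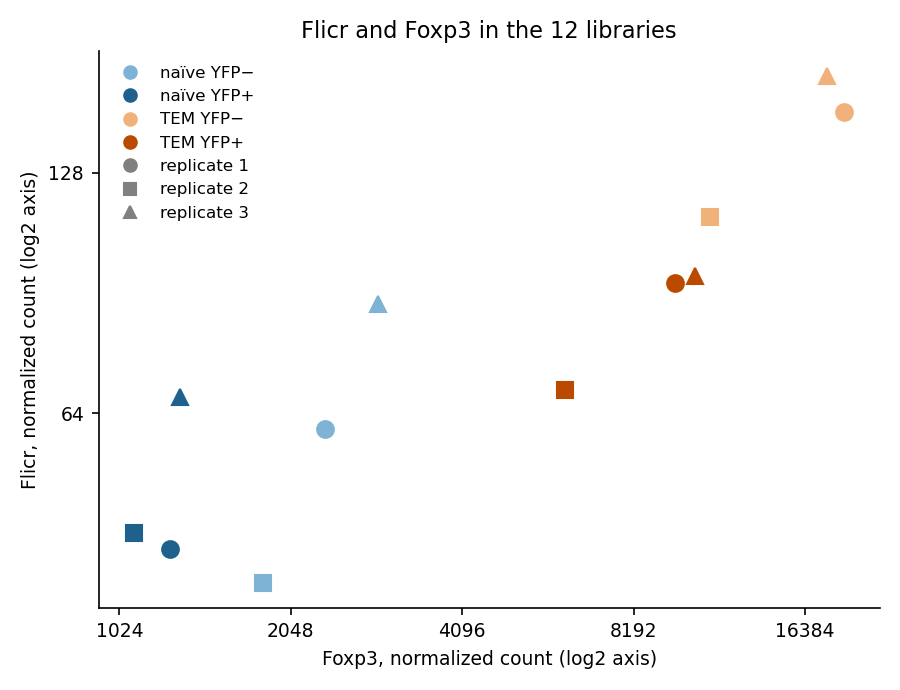
Flicr against Foxp3 in the 12 libraries (normalized counts, log2 axes), coloured by group, with marker shapes for replicate numbers. Foxp3 spans 1087 to 19208 and Flicr 39.3 to 169, and the TEM YFP− libraries are the highest in both.

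Malat1 and Neat1 did not differ detectably between the cell types. Malat1 (Entrez 72289, chr19:5795690-5802672, minus strand) had 36533, 69273 and 37505 normalized counts in naïve YFP−, 25505 and 64248 in replicates 1 and 2 and 35434.5 in replicate 3 of naïve YFP+ libraries. It had 55097, 28248 and 33082 in TEM YFP− and 27439, 50925 and 27126 in TEM YFP+ libraries. Within each group the library that stands apart was the highest, at 1.80 to 2.11 times the mean of the other libraries of its group. The log2 fold change of TEM against naïve was -0.25 (SE 0.27, limma adjusted p = 0.444), and -0.21 (SE 0.12, adjusted p = 0.162) without the 4 libraries.

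Neat1 (Entrez 66961, chr19:5824708-5845480, minus strand), which lies 22036 bases from Malat1, was highest in the same library of each group. Naïve YFP− libraries had 2628, 7818 and 2976 normalized counts and naïve YFP+ libraries 1646, 6829 and 3166. TEM YFP− libraries had 4031, 2872 and 2932 and TEM YFP+ libraries 1836, 4441 and 1935. The highest library was at 1.39 to 2.84 times the mean of the other libraries of its group. Between cell types the log2 fold change was -0.34 (SE 0.36, limma adjusted p = 0.446), and -0.11 (SE 0.18, adjusted p = 0.623) without the 4 libraries. Picking those libraries by Neat1 favours the smaller SE.

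For both RNAs most of the variation lay between replicates of a group. Differences within groups made up 89.2% of the sum of squares of log2 Malat1 and 88.1% of that of Neat1, against 17.9% for Gas5, 15.3% for Dleu2, 24.4% for Snhg1, 23.9% for Flicr and 39.9% for Pvt1. The SD within groups was 0.56 for Malat1 and 0.77 for Neat1 on the log2 scale, above 93.9 and 96.7% of the 11087 genes with a mean of 100 or more, whose median was 0.17. After group means were removed, log2 values of Malat1 and Neat1 correlated with a Pearson coefficient of 0.952 over the 12 libraries, those of Neat1 and Snhg1 with 0.906 and those of Malat1 and Gas5 with 0.82. Dleu2 and Flicr did not share the pattern, with -0.092 and -0.465 against Neat1. These coefficients describe libraries that share a normalization, and they rest in part on the 4 that stand apart. Over the other 8 libraries that of Malat1 and Neat1 was 0.904, but that of Neat1 and Snhg1 was 0.381, that of Malat1 and Gas5 -0.254, and those of Dleu2 and Flicr with Neat1 were 0.571 and 0.726. Without the 4 libraries, differences within groups made up 40.6% of the sum of squares for Malat1, 48.3% for Neat1 and 5.11% for Gas5. The SD within groups was then 0.19 for Malat1 and 0.34 for Neat1. Since the 4 were picked as the highest in Neat1, the choice itself favours this smaller spread of Neat1 and of the correlated Malat1.

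**Figure D5:**
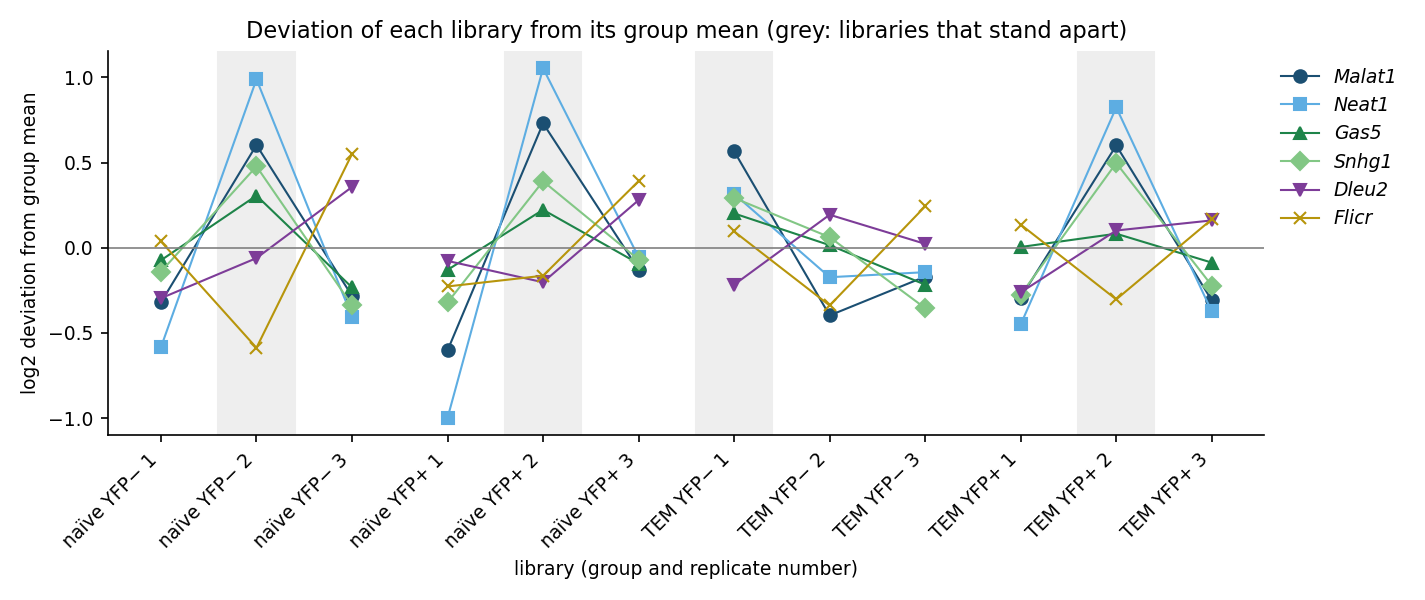
Log2 deviation of each library from the mean of its group (y axis) for 6 noncoding RNAs, with the 4 libraries that stand apart shaded. Neat1 reaches 0.99, 1.05, 0.32 and 0.82 in the shaded libraries, and Malat1, Gas5 and Snhg1 are also above 0 there.

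The 4 libraries differed from the others of their groups in many further genes. Of the 11087 genes averaging 100 normalized counts or more, 752 (6.78%) were highest of their group in all 4 of these libraries and 711 (6.41%) were lowest. Among the 179 long noncoding RNAs of that abundance the counts were 46 (25.7%) and 3 (1.68%). Summed markers of other cell types were high in some of these libraries and not in others. Those of B cells were highest there in 2 of 4 groups, at 0.384 to 2.51 times the mean of the other libraries of the group over the 4. Conventional dendritic cell markers were highest in 2 groups (0.450 to 3.40 times), macrophage and neutrophil markers in 2 (0.582 to 5.55 times), NK cell markers in 2 (0.768 to 1.30 times) and erythroid markers in 3 (0.368 to 7.77 times). Plasmacytoid dendritic cell markers were highest in 1 group (0.885 to 1.26 times) and CD8 T cell markers in 0 (0.563 to 1.09 times). Their part in the Malat1 and Neat1 levels was not tested. Of 11 paraspeckle proteins, 0 were higher and 2 were lower in TEM cells, Tardbp (log2 fold change -0.35, SE 0.08, limma adjusted p = 0.00276) and Rbm4b (-0.21, SE 0.08, adjusted p = 0.0298), while quantile normalization called 3 higher and 2 lower. The core paraspeckle proteins Nono (0.02, SE 0.07, adjusted p = 0.785) and Sfpq (0.07, SE 0.07, adjusted p = 0.415) did not pass. Frmd8, next to Neat1, was lower in TEM cells (-0.34, SE 0.07, adjusted p = 0.00106).

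In fits without a replicate block, a history of GM-CSF expression was not accompanied by a called change in any of the 7 noncoding RNAs. In TEM cells 0 of 7 were called in YFP+ against YFP− cells by limma, edgeR or DESeq2 without a replicate block, and 1, Flicr, had an unadjusted p under 0.05 in each. Of all genes tested 6.97% were called. All 7 fitted differences were below 0, with a median of -0.19 beside -0.01 for all genes. For Flicr the YFP+ libraries (68.3 to 95.1) did not overlap the YFP− libraries (113 to 169), as was true of 25.0% of all genes, and an exact permutation test of 3 against 3 libraries cannot give a p below 0.1. The log2 fold change of Flicr was -0.75 (SE 0.33, limma adjusted p = 0.265). With the replicate number as a block, DESeq2 called it (-0.76, adjusted p = 0.023), while limma (adjusted p = 0.0724) and edgeR (adjusted p = 0.0734) did not.

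Foxp3, whose exons overlap those of Flicr, was lower in YFP+ TEM cells too, with 19208, 11161 and 17909 normalized counts in YFP− and 9695, 6198 and 10484 in YFP+ libraries (log2 fold change -0.87, SE 0.24, limma adjusted p = 0.045). Without the 4 libraries that stand apart it was -0.49 (adjusted p = 0.25), and Flicr was -0.55 (adjusted p = 0.507). Flicr counts per 1000 of Foxp3 were 7.94, 10.1 and 9.44 in YFP− and 9.59, 11.03 and 9.07 in YFP+ TEM libraries, and these ranges overlapped. Of the 6 regulatory T cell markers, Foxp3 was lower and the interleukin-2 receptor chain Il2rb was higher (0.96, SE 0.16, limma adjusted p = 0.00268). The other 4 did not pass, with -0.46 for Ctla4, -0.43 for Ikzf2, -0.14 for Tnfrsf18 and 0.62 for Il2ra. With the replicate block Il2ra passed too (adjusted p = 0.00293), and without the 4 libraries the lower marker that passed was Ikzf2 (-0.69, adjusted p = 0.0234) in place of Foxp3.

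The remaining differences in TEM cells did not pass. Neat1 showed -0.37 (SE 0.51, limma adjusted p = 0.84), and -0.62 (SE 0.25, adjusted p = 0.233) without the 4 libraries that stand apart. The choice of those libraries by Neat1 favours the smaller SE. The others were Snhg1 -0.22 (SE 0.27), Gas5 -0.19 (SE 0.15, adjusted p = 0.634), Malat1 -0.15 (SE 0.38, adjusted p = 0.931), Pvt1 -0.14 (SE 0.16, adjusted p = 0.773) and Dleu2 -0.03 (SE 0.22). Among 9 targets of miR-15 and miR-16, Bcl2 was higher (1.16, SE 0.10, limma adjusted p = 9.57e-05) and Ccnd1 lower (-3.59, SE 0.41, adjusted p = 0.000307) in YFP+ TEM cells, and among 11 targets of miR-155 Cebpb (0.73, SE 0.16, adjusted p = 0.0133) and Socs1 (0.51, SE 0.13, adjusted p = 0.0306) were higher, of which 0 were called without the 4 libraries.

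Markers of other cell types differed between YFP+ and YFP− TEM libraries. Of their lists, 5 of 6 conventional dendritic cell, 6 of 8 plasmacytoid dendritic cell, 3 of 7 macrophage and neutrophil and 2 of 2 CD8 T cell markers were lower in YFP+ libraries, and 3 of 4 NK cell and 2 of 8 B cell markers were higher. Of 8 T cell and 4 erythroid markers 0 passed. Without the 4 libraries that stand apart, 4 B cell markers were higher and 1 CD8 T cell marker was lower, and 1 plasmacytoid dendritic cell marker and 1 of macrophages and neutrophils were higher. The summed level of 6 conventional dendritic cell markers was 9205 to 19012 normalized counts in YFP− and 502 to 1129 in YFP+ TEM libraries, that of 7 macrophage and neutrophil markers 7548 to 14587 and 1891 to 3690.2, and that of 4 NK cell markers 738 to 937 and 2739 to 3596. The 8 B cell markers summed to 459 to 590 in YFP− and 377 to 995 in YFP+ TEM libraries, and Ncr1 was at 0 in the YFP− ones. Their part in the values of the noncoding RNAs was not tested.

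In naïve cells 0 of 7 were called by limma, edgeR or DESeq2, 0 had an unadjusted p under 0.05, and 0.00642% of all genes were called. The libraries overlapped for all 7, whereas 5.38% of all genes did not overlap. The fitted values ran from -0.26 (SE 0.51) for Neat1 and -0.24 (SE 0.38) for Malat1 to 0.11 (SE 0.16) for Pvt1. Flicr showed -0.22 (SE 0.33), whereas Foxp3 showed -0.94 (SE 0.24, limma adjusted p = 0.947, and 0.0126 with the replicate block). An interaction term compared the YFP effect of TEM cells with that of naïve cells. It passed for 0 of the 7 and for 3.55% of all genes, 0 of the 7 had an unadjusted p under 0.05, and edgeR and DESeq2 also called 0. It was -0.53 (SE 0.47, adjusted p = 0.868) for Flicr.

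Other well-known long noncoding RNAs moved both ways between the cell types. Of 17 tested, 7 were higher in TEM cells, 3 were lower and 7 did not pass, and under quantile normalization 3 were higher and 6 lower. Among all genes tested 34.2% were higher and 25.4% lower with the size factors. The largest fitted changes were those of Morrbid (6.11, SE 0.47), the imprinted Meg3 (3.26, SE 0.63) and Miat (2.59, SE 0.62). Morrbid is known for control of the survival of short-lived immune cells. Morrbid had a mean of 1.80 normalized counts in naïve YFP−, 3.67 in naïve YFP+, 196 in TEM YFP− and 192 in TEM YFP+ libraries, and Meg3 and Miat were at 0 in all naïve YFP− libraries, so their fitted folds depend on the count added. Mir17hg, a miRNA host like Dleu2, went the other way (-0.98, SE 0.28, adjusted p = 0.00968). In YFP+ against YFP− TEM cells 1 of the 17 was called, the imprinted Peg13 (0.52, SE 0.07, adjusted p = 0.00106), which had a mean of 4124 normalized counts in YFP− and 5912 in YFP+ libraries. Of 4 structural noncoding RNAs tested, Rn7sk, Rmrp, Rpph1 and Terc, 0 passed in TEM against naïve cells by limma, while 1 passed by edgeR and by DESeq2 as lower, and 4 as lower under quantile normalization.

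Among all 635 long noncoding RNAs of RefSeq that were tested, 311 (49.0%) were called in TEM against naïve cells, 140 higher and 171 lower, with a median log2 fold change of -0.18. Among 13516 protein-coding genes 8423 (62.3%) were called, 4978 higher and 3445 lower, with a median of 0.07. In YFP+ against YFP− TEM cells 32 of the 635 (5.04%) and 1019 of the 13516 (7.54%) were called. The lower abundance of noncoding RNAs moves with these shares, and its part in them was not tested.

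The genes whose log2 values were most like each RNA over the 12 libraries were sought where the mean was 100 normalized counts or more. For Gas5 these were Zfas1 (Pearson coefficient 0.983), another snoRNA host gene, and the T cell receptor segment Trbj1-4 (0.982). For Snhg1 they were Taf1d (0.99) and H2-T10 (0.987). Taf1d is also a snoRNA host gene, outside the list counted above, and encodes a subunit of the polymerase I factor that starts ribosomal RNA synthesis. It had 1462 to 2460.3 normalized counts in naïve and 832 to 1314 in TEM libraries. For Dleu2 they were Sacm1l and Golga7 (both 0.981), and for Pvt1 Thumpd3 (0.922) and Cryzl1 (0.916). Those of Flicr were Sox12 (0.961), with 62.0 to 107 normalized counts in naïve and 109 to 418 in TEM libraries, and Ulbp1 (0.958). Malat1 was most like Whamm (0.966) and 6820431F20Rik (0.962), and Neat1 most like the splicing factor Srsf7 (0.976) and Zdhhc12 (0.974). All 4 of these genes were highest of their group in the 4 libraries that stand apart. That is largely fixed by the choice of both and is no further support. The libraries were picked by Neat1, and the genes by likeness to Malat1 or Neat1 over the same 12 libraries. Libraries share the split into cell types and the normalization, so these coefficients are descriptions.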

How the data were processed

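Per the labels and the methods of the study, stranded libraries of total RNA were run on a HiSeq2500, mapped to mm10 with DRAGEN and counted on genes with Rsubread. The signal values deposited by the authors are normalized counts, in which the reads of a library are scaled by its DESeq2 size factor. The annotation, the use of strand in counting and the versions of these tools are not given in the sources used here. Whole reads were recovered from 100% of values (tolerance 0.01). RefSeq (GRCm38.p6) named 16749 of 17523 genes by Entrez identifier.

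The noncoding RNAs and gene lists were chosen with earlier results of these data known. The filter asked for 5 normalized counts or more in 3 or more libraries and left 15587 genes. Their values plus 1 were fitted on the log2 scale with limma 3.58.1 (R 4.3.3), which estimated 4 group means and used eBayes with a trend, and Benjamini-Hochberg adjustment ran over all genes tested. Fold changes on this scale understate the change of low genes. The fit was tested on simulated data. The design assumed normalized counts, so count tests on the recovered reads (edgeR 4.0.16, DESeq2 1.42.0) are alternatives. The study's methods use DESeq2 with a minimum change of 2 on the log2 scale, which was also tried.

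Named genes are the listed RNAs, genes that overlap or adjoin them (some are not reported here), the 2 genes most correlated with each, Foxp3, Myc, and the 3 largest called changes of each list. Others named from the lists (Snhg20, Bcl2, Inpp5d, Socs1, Nono, Sfpq, Il2ra, Ctla4, Ikzf2, Tnfrsf18, Mir17hg, Ncr1, Xist and Morrbid levels) were chosen after their values were seen. After group means were removed, libraries of the same replicate number from YFP+ and YFP− cells were correlated over genes. The coefficients were 0.306, 0.491 and 0.36 in naïve and 0.18, 0.338 and 0.356 in TEM cells. For different numbers they ran from -0.351 to 0.0184 and from -0.297 to -0.036, though removing group means pushes these below 0. The numbers thus seem to pair YFP+ with YFP− libraries. In TEM cells, however, the library that stands apart is replicate 1 of YFP− and replicate 2 of YFP+. The pairing rests on the data and not on the labels, although the methods name 3 mice for the 4 populations. Between naïve and TEM libraries of the same number the coefficients ranged from -0.0199 to 0.232.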

Additional observations from a re-analysis of the deposited data

How the results depend on the processing

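The counts of noncoding RNAs called changed under few alternatives. In TEM against naïve cells 5 were called, 4 without the 4 libraries that stand apart (an alternative chosen after seeing the data), 2 under quantile normalization, 1 when a change of at least 1 on the log2 scale was also asked and 0 when at least 2 was. In YFP+ against YFP− TEM cells the count was 0, and 1 by DESeq2 with the replicate block. The replicate block in limma left the counts at 5, 0, 0 and 0 and changed no other call of a listed RNA, and leaving out each library in turn left all of them as they were. The count of all genes called in YFP+ against YFP− TEM cells went from 1087 to 1869 with the block in limma, 2098 in edgeR and 2416 in DESeq2, and to 638 without TEM YFP− replicate 3. It was 749 and 543 with a log2 fold change of at least 1 and 2. In TEM against naïve cells these thresholds left 4253 and 2548 of 9282. In naïve cells the 1 gene called became 0 to 61 across the settings, with 0 without replicate 1 or 2 of YFP− or replicate 1 or 3 of YFP+ and 61 by DESeq2 with the block. The interaction went from 554 to 890 with the block in limma, 838 and 1241 by DESeq2 without and with it, 346 without TEM YFP− replicate 1, 279 without TEM YFP− replicate 3 and 207 without the 4 libraries. In YFP+ against YFP− TEM cells the calls split into 359 higher and 728 lower, and under quantile normalization into 686 and 806.

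Signs turned for some differences, called ones among them. Under quantile normalization, TEM against naïve gave 0.12 for Malat1, -0.071 for Pvt1 and -0.12 for Flicr, of which the last pair had been called as higher. The cause was not tested. The same scaling gave 0.042 for Pvt1 and 0.28 for Dleu2 in YFP+ against YFP− TEM cells and -0.018 for the Malat1 interaction. Dleu2 in TEM cells was 0.0047 with TMM factors and 0.0072 by edgeR, against -0.03. The Malat1 interaction, 0.09, was -0.029 by edgeR and -0.062 by DESeq2 with the replicate block, and that of Dleu2, 0.16, was -0.0655 without the 4 libraries. When single libraries were left out, the ranges that crossed 0 were as follows. In TEM cells Malat1 ran from -0.45 to 0.14 and Dleu2 from -0.14 to 0.10. In naïve cells Malat1 ran from -0.60 to 0.065, Neat1 from -0.79 to 0.24, Gas5 from -0.16 to 0.11, Snhg1 from -0.16 to 0.27 and Flicr from -0.52 to 0.0525. In the interaction Malat1 ran from -0.21 to 0.45, Neat1 from -0.61 to 0.42 and Dleu2 from -0.014 to 0.31. With 3 libraries per group and the replicate spread given in the report, small differences of Malat1 and Neat1 were not detectable.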
